A study of Gallus gallus with 2 samples.

Results

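Contacts between parts of the DACT2-SMOC2 locus that lie 1 Mb or more apart were examined in targeted chromatin capture data from the chick embryo. The members are all listed pairs of restriction fragments whose midpoints are at least 1 Mb apart, chosen on distance alone and not on any measured value. The interzone list held 13509 such pairs among 100914 (13.4%) and the phalange list held 9913 among 71542 (13.9%). Interzone is the tissue in which a joint forms, and the phalange is the skeletal element beside it. Both were microdissected from digit 3 of the hindlimb of White Leghorn chick embryos at stage HH32, after 7.5 days of incubation, and 100 specimens per tissue were pooled into 1 library. No treatment, mutation or transgene was involved. There were no replicate libraries, so nothing below can be set against a spread between replicates, and every test compares 2 libraries and not 2 tissues.

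In low-input targeted chromatin capture, cross-linked chromatin is cut with the enzyme ApoI, ends that lie near each other in the nucleus are ligated, and ligation products of 1 locus are enriched with baits and sequenced from both ends. A listed pair is thus a record that 2 fragments of the 3.45 Mb locus on chromosome 3 were joined at least once. Contact frequency in chromatin falls with distance along the DNA, and domains that favour internal contacts, separated by boundaries, lie on top of that fall. Contacts beyond 1 Mb are rare, so departures from the fall with distance have to be read against the counting error. SMOC2 encodes a secreted calcium-binding protein of the extracellular matrix, and DACT2 an antagonist that binds Dishevelled in Wnt signalling. In the GRCg7b chicken annotation the protein-coding order is WDR27, THBS2, SMOC2, 8 gene models, DACT2, FRMD1 and KIF25. The coordinates below belong to galGal5, the build named in the submitters' processing notes, in which genes were not placed here, so stretches are named by position.

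Of all fragment pairs possible at this range among the 6569 fragments of the locus, the interzone list held 0.126% and the phalange list 0.0922%. Members made up 20.05% of the interzone pairs 20 kb or more apart (13509 of 67384, 95% Wilson interval 19.7 to 20.4). In the phalange they made up 22.9% (9913 of 43240, 22.5 to 23.3). The intervals hold no other error than that of counting and take each pair as an independent event. By summed signal, the deposited value of each pair, the shares were 20.2% and 23.0%. Of the signal of all pairs of non-adjacent fragments, members held 5.32% in the interzone and 3.09% in the phalange. By signal, which library had the higher share thus depended on the lower limit of distance. The sequencing depth behind the lists is unknown.

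The members were spread over the whole range of distances. The median distance was 1.56 Mb in the interzone and 1.54 Mb in the phalange. Beyond 2 Mb there were 3552 and 2509 pairs, and beyond 3 Mb 315 and 201. In the interzone, 15.1 of every 10000 possible pairs were listed between 1 Mb and 1.5 Mb, then 12.1, 10.6, 9.40 and 8.69 in successive bands of 0.5 Mb. In the phalange the series was 11.2, 8.98, 7.75, 6.42 and 5.54. The listing rate thus fell in every band, by 1.74-fold from the first band to the last in the interzone and by 2.03-fold in the phalange. The slope of log10 rate on log10 distance was -0.60 (SE 0.027 over distance classes) in the interzone and -0.69 (SE 0.036) in the phalange. Those errors describe scatter along the locus within 1 library.

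**Figure D1:**
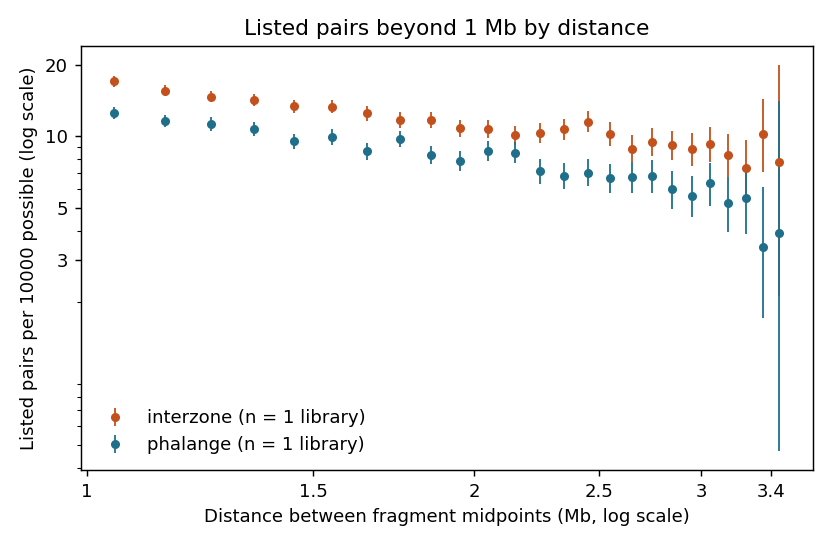
Listed pairs per 10000 possible pairs (log scale) against the distance between fragment midpoints in Mb (log scale), in classes of 100 kb, with exact 95% Poisson intervals as bars, for 1 interzone and 1 phalange library. Both series fall with distance, from 15.1 and 11.2 between 1 Mb and 1.5 Mb to 8.69 and 5.54 beyond 3 Mb, and the interzone points lie above the phalange points.

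The signal of a listed pair varied little over distance. Its median was 0.000257 in the interzone (quartiles 0.000201 and 0.000354) and 0.000251 in the phalange (0.000197 and 0.000351). Across the 5 bands the medians ranged from 0.000252 to 0.000262 and from 0.000246 to 0.000259. These medians take in listed pairs only, so they do not show that contact was flat over distance. The signal has no stated unit, and its reciprocal was a whole number, within 0.01, for 96.6% of the members of each library. High values went with short fragments. Where the shorter fragment was under 100 bp, the median was 0.000475 for interzone and 0.000471 for phalange pairs, against 0.000239 and 0.000233 for fragments of 800 bp to 1600 bp. The number of listed pairs is therefore the leading measure below, and summed signal is given beside it.

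To find stretches in contact beyond what distance gives, the locus was divided into bins of 100 kb. The expected number of listed pairs of a bin pair was fitted from the long-range total of each bin and from 100 kb distance classes, with the number of possible fragment pairs as exposure. Of 351 bin pairs at this range, 324 in the interzone and 319 in the phalange had at least 10 expected pairs. Those bin pairs held a median of 40 listed pairs in the interzone (11 to 90) and 29 in the phalange (7 to 69).

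Beyond 1 Mb the bin pairs lay close to this expectation in both libraries. The ratio of observed to expected pairs ran from 0.613 to 1.43 in the interzone (SD 0.159 over bin pairs) and from 0.485 to 1.51 in the phalange (SD 0.176). Within 20% of expectation were 258 bin pairs (79.6%) and 242 (75.9%). The exact 95% Poisson interval of the observed number took in a ratio of 1 for 313 interzone bin pairs (96.6%) and 307 phalange bin pairs (96.2%). By summed signal the SDs were 0.184 and 0.223.

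A bin pair was called when it stood at least 1.5-fold above or below expectation, which is a limit of size and not a test. In the interzone, 0 of 324 bin pairs (0%) were called above and 6 (1.85%) below. In the phalange, 1 of 319 (0.313%) was called above and 8 (2.51%) below. Called the same way in both libraries were 0 of 319 (0%) above and 0 (0%) below. The same limit applied to all bin pairs 100 kb or more apart, fitted together, called 7 of 596 interzone bin pairs above (1.17%) and 32 below (5.37%). In the phalange it called 8 of 587 above (1.36%) and 25 below (4.26%), and in both libraries 2 above (0.341%) and 7 below (1.19%). The counts of the members and of the whole table come from different bin totals. Within the whole-table fit, bin pairs 11 or more bins apart lie wholly beyond 1 Mb. Of these, 17 of 300 in the interzone and 16 of 292 in the phalange were called in either direction, 3 of them the same way in both libraries.

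**Figure D2:**
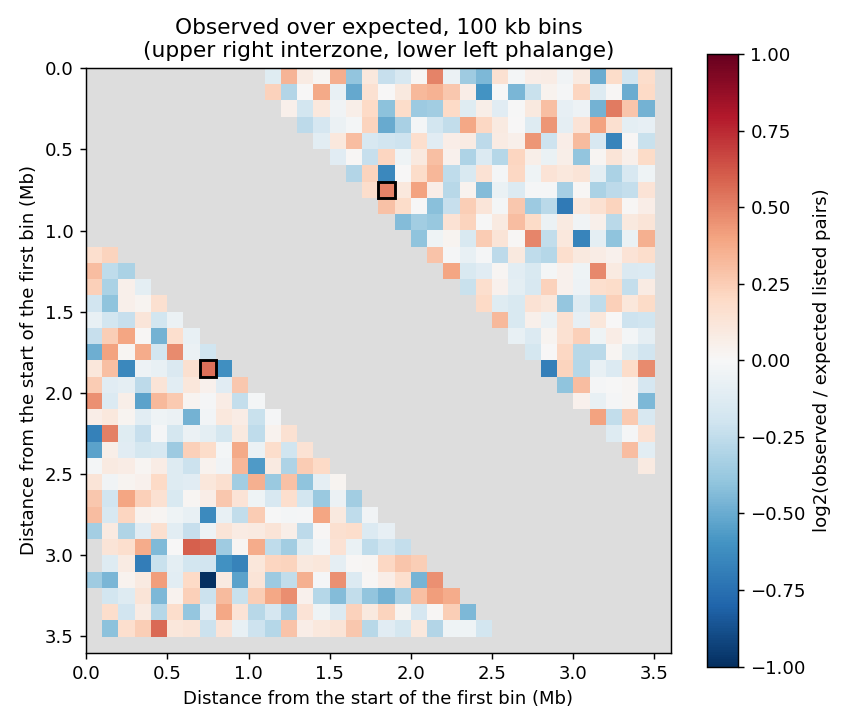
Log2 of observed over expected listed pairs for bin pairs of 100 kb at least 1 Mb apart with at least 10 expected, with interzone in the upper right and phalange in the lower left. Axes give the distance in Mb from the start of the first bin, and grey marks pairs nearer than 1 Mb or with fewer expected. Most cells are pale, and the boxed cell, with ratios of 1.41 and 1.46, is the 1 that stands among the 5 highest of both libraries.

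In bins of 100 kb, the variation left after the fit was close to what counting gives. The dispersion, the chi-square statistic over its degrees of freedom, was 1.13 for the interzone and 1.07 for the phalange, where 1 means counting error alone. That corresponds to a coefficient of variation beyond counting of 6.01% and 6.16%. For bin pairs 100 kb to 1 Mb apart the dispersion was 7.73 and 4.51, and the coefficients were 24.0% and 21.1%. In bins of 200 kb, the dispersion beyond 1 Mb was 1.59 for the interzone, above counting error, and 0.997 for the phalange. The coefficients there were 6.29% and 0%. From 100 kb to 1 Mb, bins of 200 kb had dispersions of 20.1 and 10.0. The structure that single bin pairs show at shorter range was therefore not detectable to the same degree beyond 1 Mb at the number of pairs listed.

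Which single bin pairs stood high or low could not be told to agree between the libraries at the number of pairs listed. Across the 319 bin pairs measured in both, the ratios correlated with r = 0.039 (Pearson) and rho = 0.014 (Spearman), and 159 (49.8%) lay on the same side of 1. Across 295 bin pairs 100 kb to 1 Mb apart, the same ratios had r = 0.779 and rho = 0.791, with 237 (80.3%) on the same side. With bin totals of all pairs 100 kb or more apart, r was 0.357 and rho 0.288 beyond 1 Mb (n = 292). Where the ratios vary little beyond counting error, as they did beyond 1 Mb in 100 kb bins, an r near 0 does not show that the libraries differ. Bin pairs share bins, baits and fragments, so these correlations describe the lists. The nearer bin pairs also held more listed pairs, with medians of 114 and 75. Within the long range, r was 0.109 for bins 11 to 14 apart (n = 90), 0.037 for bins 15 to 19 apart (n = 90) and -0.0003 for bins 20 or more apart (n = 115). In bins of 200 kb, r rose to 0.320 and rho to 0.242 (n = 90), with 51 bin pairs on the same side.

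**Figure D3:**
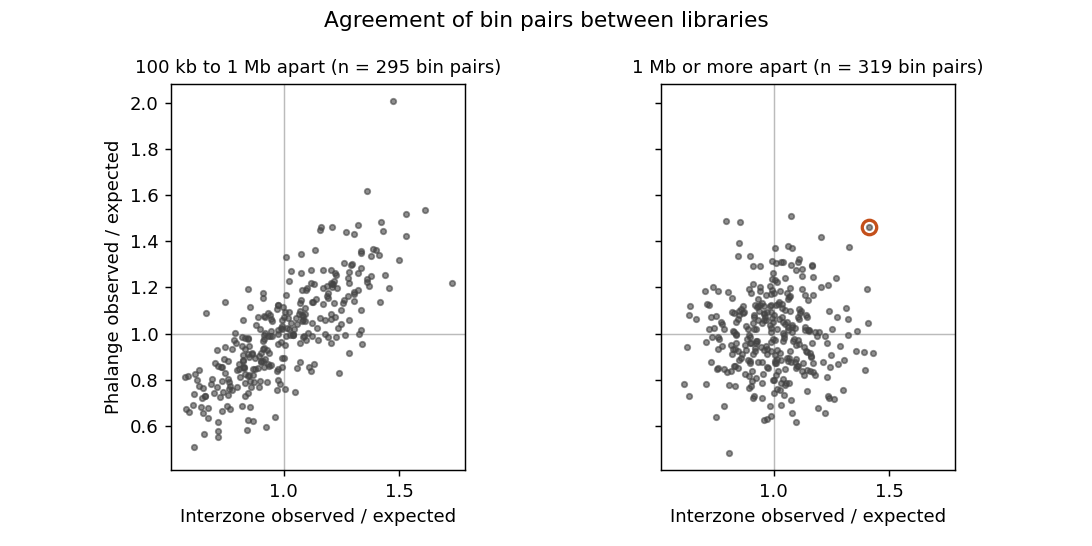
Observed over expected listed pairs in the phalange against the interzone, each point a bin pair of 100 kb, for 295 bin pairs 100 kb to 1 Mb apart (left) and 319 bin pairs 1 Mb or more apart (right). The left points follow a diagonal (r = 0.779) and the right points form a round cloud (r = 0.039), outside which lies the circled bin pair at 1.41 and 1.46.

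The highest bin pairs of each library illustrate this. In the interzone the highest joined the bins starting at 40300001 and 43300001, with 52 listed pairs against 36.3 expected, a ratio of 1.43 (Poisson interval 1.07 to 1.88). The phalange listed 20 there against 21.8, a ratio of 0.916. In the phalange the highest joined the bins starting at 40700001 and 43000001, with 26 pairs against 17.2, a ratio of 1.51 (0.986 to 2.21), where the interzone ratio was 1.08. Each library's highest bin pair was thus unremarkable in the other. An exception, of rank 2 in the interzone and rank 4 in the phalange, was 40800001 with 41900001, which was high in both and is described below. After it, the highest interzone bin pairs joined 40100001 with 42200001 (ratio 1.41), 41100001 with 42800001 (1.40) and 41300001 with 43200001 (1.40). Their phalange ratios were 1.04, 1.19 and 0.844. The further phalange bin pairs joined 40800001 with 43000001 (1.49), 40500001 with 43500001 (1.48) and 40200001 with 42300001 (1.42). Their interzone ratios were 0.796, 0.855 and 1.21.

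The 5 lowest bin pairs of the libraries had 0 in common. The lowest of the interzone joined 40900001 with 43000001, with 24 pairs against 39.1 expected, a ratio of 0.613 (0.393 to 0.912), against 0.783 in the phalange. By signal that phalange ratio was 1.22, on the other side of 1. The other interzone ratios were 0.623 between 41900001 and 42900001, 0.633 between 40500001 and 43300001, 0.633 between 41100001 and 43100001, and 0.640 between 40700001 and 41900001. The phalange ratios there were 0.944, 0.731, 1.08 and 1.12. The lowest of the phalange joined 40800001 with 43200001, with 12 pairs against 24.7, a ratio of 0.485 (0.251 to 0.847), against 0.805 in the interzone. By signal that phalange bin pair stood at 1.18, above expectation. The other phalange ratios were 0.618 between 40400001 and 43100001, 0.627 between 40100001 and 42300001, 0.631 between 41000001 and 43100001, and 0.639 between 40300001 and 41900001. The interzone ratios there were 1.10, 0.959, 0.973 and 0.752. By signal, 40400001 with 43100001 stood at 1.01 in the phalange.

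One bin pair stood among the 5 highest of both libraries. It joined 40800001 to 40900000 with 41900001 to 42000000. The interzone listed 75 pairs against 53.1 expected, a ratio of 1.41 (1.11 to 1.77), and the phalange listed 64 against 43.7, a ratio of 1.46 (1.13 to 1.87). By signal the ratios were 1.43 and 1.52, and 1.304 and 1.388 without the strongest pair of each library. Summed over the libraries, 139 pairs stood against 96.9, a ratio of 1.44 (1.21 to 1.69). That was the highest of the 319 summed ratios, ahead of 1.35 for the second, and the lowest was 0.674. The bin pair was singled out by these values, so they are a description and carry no test.

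The listed pairs of this bin pair were spread over many fragments. In the interzone the pairs used 52 of the 147 fragments of the first bin and 51 of the 129 of the second, and in the phalange 42 and 41. No fragment took part in more than 4 of them. Of the 25 cells of 20 kb by 20 kb, 22 held a pair in the interzone and 23 in the phalange, with at most 9 and 7 pairs in a cell. These counts cover all the listed pairs, of which 53.1 and 43.7 were expected, so they do not show which fragments carry the excess. Listed in both libraries were 2 of the pairs, and the number expected there was not worked out. No neighbouring bin pair stood as high in either library. In the interzone the neighbours had ratios of 0.640, 1.00, 1.08, 1.13, 1.14, 1.17 and 1.22, so most lay at or above 1. In the phalange the ratios ran from 0.655 to 1.12, on both sides of 1. With the grid moved by 50 kb, the bin pair starting at 40850001 and 41850001 stood at 1.51 and 1.799 (26 and 28 pairs against 17.2 and 15.6). The other 3 overlapping bin pairs of the moved grid had ratios of 1.10, 1.05 and 1.33 in the interzone and of 0.9502, 1.35 and 0.918 in the phalange.

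Both ends of this bin pair hold a boundary seen in the shorter-range pairs, which the choice of members did not use. The comparison was made after the bin pair had been singled out and carries no test. The insulation score, the number of listed pairs crossing a position within 100 kb, had 26 minima in each library. The 2 most prominent lay at 40840001 (prominence 1.78 on the log2 scale) and 41950001 (1.29) in the interzone, and at 40830001 (1.32) and 41950001 (1.19) in the phalange. The score was not corrected for the number of fragments, which was 147 and 129 in these bins against a range of 74 to 292 over the 35 bins with at least 100 long pairs. Its part in the minima was not tested. In the grid moved by 50 kb, the highest overlapping bin pair, 40850001 with 41850001, held neither of the 2 most prominent minima of either library. The first interzone minimum ended at 40850000, directly before its first bin. The minimum at 41950001 began directly after its second bin in both libraries. Which bin pair held a minimum thus depended on the bin edge and does not show where the excess lies. The bin pair that held both minima, 40750001 with 41950001, stood at 1.05 in the interzone and 1.35 in the phalange. Whether the boundaries have a part in the excess was not tested. The bin starting at 41600001, with a minimum at 41630001 in both libraries, had 16 long-range partners with ratios of 0.865 to 1.29 (interzone) and 0.742 to 1.37 (phalange), and 0 were called.

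A limit of 1.3-fold left 4 of 319 bin pairs on the same side in both libraries, which are named here after their values were seen. In either direction, 38 of 324 bin pairs passed that limit in the interzone and 45 of 319 in the phalange. How many of them unrelated lists of these sizes would share was not worked out. Nor was the share of all bin pairs 100 kb or more apart that pass 1.3-fold. The 4 therefore do not show that the libraries agree. Besides the one above, 42200001 with 43200001 stood high, at 1.32 in the interzone and 1.37 in the phalange. Low in both were 40300001 with 41900001 at 0.752 and 0.639, and 40500001 with 43300001 at 0.633 and 0.731. With bin totals taken from all pairs 100 kb or more apart, 3 of 292 bin pairs 11 or more bins apart passed 1.5-fold in both. In the single libraries 17 of 300 and 16 of 292 passed. Over the whole table, 2 of 587 bin pairs (0.341%) passed above in both and 7 (1.19%) below. The 3 at this long range were 41000001 with 42400001, at 1.65 and 1.85 (59 and 57 pairs), 40200001 with 41600001 at 0.586 and 0.639, and 40300001 with 41900001 at 0.634 and 0.551. The first of them stood at 1.17 and 1.299 when totals of long pairs alone were used.

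At a coarser scale the ratios lay nearer to 1. Summed to 7 blocks of 500 kb, the 15 block pairs had interzone ratios of 0.983 to 1.04 and phalange ratios of 0.936 to 1.05, and the Poisson interval of each took in 1. The fit to bin totals itself holds such sums near 1. The blocks starting at 40600001 and 41600001 were highest over both libraries together, at 1.04 (0.988 to 1.10), with 738 interzone and 574 phalange pairs. This block pair holds the bin pair described above. Next came 40100001 with 42600001 at 1.04 and 41100001 with 43100001 at 1.03. The lowest were 40600001 with 43100001 at 0.968 (0.917 to 1.02), 40100001 with 41100001 at 0.985 and 40100001 with 41600001 at 0.986. Interzone and phalange lay on the same side of 1 for 9 of the 15 block pairs, with r = 0.634 and rho = 0.368. The fit to bin and distance totals ties these 15 values to each other, so the correlations do not show agreement.

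Single bin pairs were also compared between the libraries, by Fisher's exact test, two-sided, against the other listed pairs of the same distance class. Over the whole table of 592 bin pairs 100 kb or more apart with at least 20 listed pairs, 0 (0%) passed a Benjamini-Hochberg adjusted p of 0.05, and 47 (7.94%) had an unadjusted p under 0.05. Of these, 297 were wholly beyond 1 Mb, at 11 or more bins apart, which leaves out bin pairs that straddle 1 Mb. None of the 297 passed, 16 (5.39%) had an unadjusted p under 0.05, and the smallest adjusted p of the exact test was 0.385. Their odds ratios, interzone over phalange, ran from 0.475 to 2.20, with quartiles at 0.845 and 1.21 and a median of 71 pairs in both libraries together.

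In contrast to the bin pairs, the long-range totals of single bins followed each other closely in the libraries. Set against distance alone, the 35 bins with at least 100 long pairs had 0.712 to 1.44 times the expected number in the interzone and 0.704 to 1.47 times in the phalange. Between the libraries r was 0.939 and rho 0.944 over these bins. The bin starting at 40800001 was the highest, with an interzone ratio of 1.44 (1.34 to 1.54) and a phalange ratio of 1.47 (1.35 to 1.59), followed by 41000001 at 1.298 and 1.42. Among the lowest were 43500001, at 0.712 and 0.720, and 41600001, at 0.755 and 0.704.

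These totals went with the length of the fragments. Mean fragment length per bin ran from 337 bp to 766 bp, and its rho with the ratio was 0.765 for the interzone and 0.828 for the phalange over the 35 bins. With the product of fragment lengths in place of fragment numbers as exposure, chosen after seeing the data, the SD of the ratios fell from 0.165 to 0.109 and from 0.195 to 0.0994. The bin starting at 40800001 then stood at 1.09 and 1.11, and 41600001 at 1.02 and 0.948. Other bins moved past 1 to the far side. The bin starting at 41900001 went from 1.18 to 0.749 in the interzone and from 1.31 to 0.829 in the phalange. At 42100001 the ratios went from 1.16 to 0.836 and from 1.10 to 0.793. The interzone range became 0.749 to 1.21 and the phalange range 0.793 to 1.19, and r between the libraries was 0.818. With length as exposure, the rho of the ratio with mean fragment length was -0.374 for the interzone and -0.121 for the phalange.

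**Figure D4:**
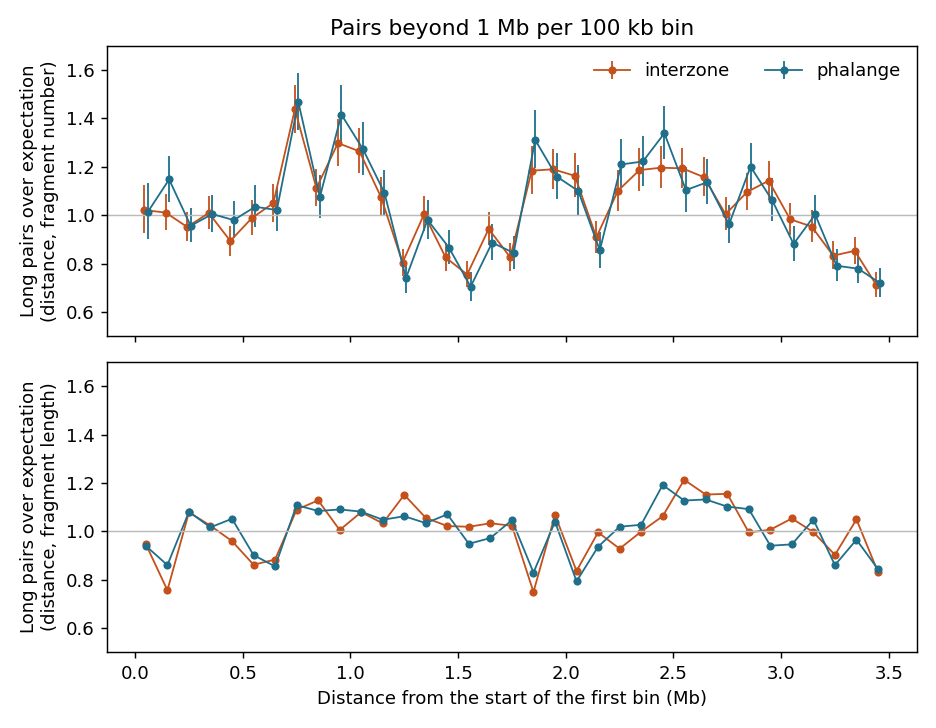
Long pairs of each 100 kb bin over the expectation from distance, with fragment numbers (upper panel, exact 95% Poisson bars) or products of fragment lengths (lower panel, no bars) as exposure, along the locus in Mb from the start of the first bin, for 35 bins of the interzone and phalange libraries. The lines of both libraries run together in the upper panel (r = 0.939), and the peak at 1.44 and 1.47 falls to 1.09 and 1.11 in the lower one.

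The share of a bin's pairs 20 kb or more apart that were members was highest at the ends of the locus, which have more of it beyond 1 Mb. Over both libraries it was 42.6% in the bin starting at 43600001, which holds 11 fragments, 37.9% at 43500001 and 37.7% at 40100001. It was lowest at 41600001 (15.3%), 41800001 (16.7%) and 42100001 (16.95%), near the middle. At 41600001 the share was 14.2% in the interzone (Wilson interval 13.3 to 15.1) and 17.3% in the phalange (16.0 to 18.6). In 36 of 36 bins the phalange share was the higher one. Fisher's exact test per bin called 24 of 36 (66.7%) at an adjusted p under 0.05, with odds ratios of 0.743 to 0.928 (median 0.846) and a smallest adjusted p of 3.95e-05. With pairs 100 kb to 1 Mb apart in place of those 20 kb to 1 Mb apart as the rest, 9 bins were called, and the phalange share was again higher in 36 of 36. These tests were not set against the share over the whole locus, which already differed at 20.05% (interzone) and 22.9% (phalange). Each member also counts in the bins of both its fragments, so the bins are not independent. The calls therefore do not show whether any bin differs beyond this library-wide difference. Its direction was the same in each bin of the locus under both choices of the rest. Both choices leave out pairs under 20 kb apart. With those included, the phalange list as a whole still had the higher share by listed pairs, at 13.9% against 13.4% (interzone). By signal, adjacent fragments aside, the interzone list had the higher share, at 5.32% against 3.09% (phalange).

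Single fragments followed the same pattern of length. No member was listed for 1238 fragments (18.8%) by the interzone and 1623 (24.7%) by the phalange, and the median fragment had 3 and 2. The 66 fragments with most long pairs held 4.50% and 5.54% of all ends, so the lists were not carried by a few fragments. Fragments under 100 bp had a mean of 0.516 and 0.387 long pairs, and those of 1600 bp or more had 9.58 and 8.55. The rho with length was 0.726 and 0.722, and that between the libraries was 0.715, across 6569 fragments. The fragment at 40853636 to 40858606 (4971 bp) led the interzone with 33 long pairs and had 25 in the phalange. The fragment at 40824303 to 40827865 (3563 bp) led the phalange with 33 and had 20 in the interzone. Both lie in the bin starting at 40800001. The others named by the rule were 40462476 to 40464989 (26 and 14), 42692782 to 42695605 (25 and 15) and 42923766 to 42926506 (22 and 24).

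Few members recurred in both lists. In all, 69 pairs were listed in the interzone and the phalange, 0.511% of the interzone members and 0.696% of the phalange members. From 100 kb to 1 Mb, lists of 38208 (interzone) and 24973 (phalange) pairs held 62711 different pairs. Most of those were thus also listed in 1 library only, so this was not particular to the members. Recurrence was more frequent over all distances, where lists of 100914 and 71542 pairs held 153091 different pairs. For the 69 recurring members, the listing rates of the bin pairs gave 13.8 expected, a ratio of 4.999 (Poisson interval 3.89 to 6.33). The long-pair totals of the single fragments gave 35.4, a ratio of 1.95 (1.52 to 2.47). The excess thus shrank by more than 1.5 times, but its interval remained above 1, once long fragments with many pairs were allowed for. The median length of fragments in recurring pairs was 928.5 bp, against 661 bp over all members. Their median signal, 0.000205 in the interzone and 0.000202 in the phalange, was not above that of the members as a whole.

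One recurring pair stood far above the others. It joined 41070290 to 41071754 (1465 bp) with 42156862 to 42157848 (987 bp), 1.09 Mb apart. Its signal was 0.00846 in the interzone, 32.9 times the median of the members, and 0.0113 in the phalange, 45.0 times the median. In the phalange it was the strongest member of all, and in the interzone the pair of rank 3. The interzone pairs above it, at 0.02 and 0.0109, each had a fragment under 100 bp and were not listed in the phalange. Among members with both fragments at least 400 bp long, 6721 in the interzone and 5461 in the phalange, it ranked 1 in both, at 3.35 and 3.33 times the next.

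The high signal was limited to a few fragments. The pair was not checked in the reads or in another assembly, and what part mapping or assembly has in its signal was not tested. The fragment that follows on the second side, 42157855 to 42159224, was also paired with 41070290 to 41071754 in both libraries, at an interzone signal of 0.00122 and a phalange signal of 0.000614. The preceding fragment, 42156249 to 42156855, was paired with it in the phalange alone, at 0.000264. Within 5 fragments on each side, the interzone listed 2 pairs and the phalange 3, all with the same first fragment. Within 20 kb there were 7 and 8 listed pairs against 6.51 and 5.18 expected at the listing rate of the whole bin pair. The bin pair that holds it, 41000001 with 42100001, stood below expectation by listed pairs, at 0.787 and 0.846, and above it by signal, at 1.21 and 1.5004. This single pair made up 38.1% and 56.7% of that bin pair's signal. Because the signal has no stated divisor, the values do not show how many ligation products lie behind the pair.

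The other recurring pairs were weaker, the smaller signal of the first being 13.8 times that of the second. The strongest after the 2 above joined 40877193 to 40877713 with 42743248 to 42743600, at 0.000552 in the interzone and 0.000635 in the phalange. Next, 41361982 to 41362901 with 42637750 to 42637903 had 0.00101 and 0.000547, and 41738821 to 41739965 with 42934606 to 42935062 had 0.000450 and 0.000477.

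**Figure D5:**
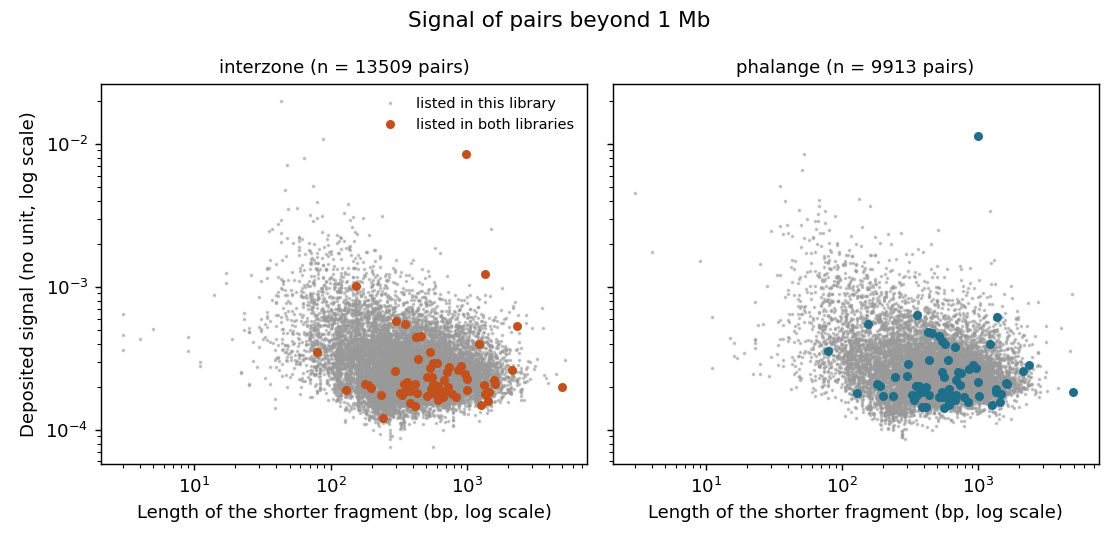
Deposited signal (no unit, log scale) of each member against the length of its shorter fragment in bp (log scale), for 13509 interzone and 9913 phalange pairs, with pairs listed in both libraries as large points. Most of the highest signals lie at short fragments, and the recurring pair at 0.00846 and 0.0113 stands apart from pairs with fragments of similar length.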

How the data were processed

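The authors deposited, for each of 2 libraries, a list of fragment pairs on chromosome 3 each with 1 value. Per the file headers, that value is a signal. BWA, FastQC and galGal5 are named in the submitters' processing notes. The normalization of the signal, duplicate removal and any threshold for listing a pair are not given in the sources used here, so depth is unknown and listed pairs were counted. Tests planned on counts were run on numbers of listed pairs.

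Fragments of both lists were numbered together and distances taken between midpoints. Expected numbers came from iterative proportional fitting of bin totals and 100 kb distance classes (classes of 3 Mb or more joined). The pairs themselves enter the totals, which draws ratios toward 1. Intervals are exact Poisson or Wilson at 95% and cover counting error only. P-values came from two-sided Fisher's exact tests with Benjamini-Hochberg adjustment over the whole table, at a threshold of 0.05. Calculations used Python 3.11.15, numpy 2.4.6, scipy 1.17.1 and pandas 2.3.3, figures matplotlib 3.10.9, and the code was tested on simulated data.

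The members, lists and tests were chosen with earlier results of these data known. The text names, for each library, the 5 highest and 5 lowest bin pairs with at least 10 expected, any called the same way in both, the 3 highest and 3 lowest block pairs and bins, the 3 fragments with most long pairs, and the 5 recurring pairs of highest smaller signal. Alternatives changed the measure, bin size and grid, bin totals, distance model, distance minimum, weak bins, fragments and limits.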

Additional observations from a re-analysis of the deposited data

How the results depend on the processing

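Past 1.5-fold were 6 of 324 bin pairs in the interzone, 9 of 319 in the phalange and 0 of 319 in both the same way. The settings below moved these counts by over 1.5 times. Summed signal gave 11 of 324 and 27 of 319, and 200 kb bins gave 0 of 90 in each library. Bins of 50 kb gave 84 of 658 in the interzone, 46 of 306 in the phalange and 5 of 305 in both. Totals of all pairs 100 kb or more apart gave 17 of 300, 16 of 292 and 3 of 292 in both. The moved grid gave 1 of 320 in both, and a minimum of 1.5 Mb gave 3 of 209 in the interzone. Leaving out fragments under 100 bp gave 11 in the interzone. A limit of 1.3-fold gave 38 of 324, 45 of 319 and 4 of 319 in both, and 2-fold gave 0 and 1 of the same bin pairs. Pearson r and Spearman rho between libraries, 0.039 and 0.014, were 0.320 and 0.242 in 200 kb bins, 0.357 and 0.288 with totals of all pairs, and r was 0.779 for pairs 100 kb to 1 Mb apart. The SD of the ratios, 0.159 and 0.176, was 0.184 and 0.223 by signal, 0.0982 and 0.0994 in 200 kb bins, 0.260 and 0.279 in 50 kb bins, 0.209 and 0.211 with totals of all pairs, and 0.177 in the interzone with a power law. Bins called by Fisher's exact test, with the library-wide difference left in, were 24 of 36. They became 9 with pairs 100 kb to 1 Mb apart as the rest and 15 of 19 in 200 kb bins. The ratio for recurring pairs, 4.999, was 1.95 from fragment totals. Members from 1.5 Mb made up 10.8% and 12.2% of pairs 20 kb or more apart. With length as exposure the SD over bins was 0.109 and 0.0994. By signal, the phalange ratios of 40800001 with 43200001 and of 40400001 with 43100001 turned to 1.18 and 1.01. The cause was not tested for any of these. A further phalange value, 40900001 with 43000001, stood at 1.22 by signal, and the other 257 of the 260 values recomputed for the named bin pairs neither left the Poisson interval of the reported value nor, where it was past 1.5-fold, turned to the other side of 1. The decay slope and the count of 0 bin pairs by Fisher's exact test kept their direction and side. Of the bin pairs wholly beyond 1 Mb, 16 of 300, 2 of 78 and 23 of 297 had an unadjusted p under 0.05 by that test. Length as exposure, the nearer range, the strongest pair left out and the 4 moved bin pairs were alternatives chosen after seeing the data. The insulation minima were likewise set beside the highest shared bin pair after it was seen. No paired analysis was possible because there was 1 library per tissue. With 1 library each and no stated depth, a departure within the Poisson interval of a bin pair was not detectable.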
